A study of Daucus carota with 18 samples.

Results

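Among 32113 annotated carrot genes, 98 were higher in the dark purple outer phloem of both dark root sets than in the pale purple outer phloem. They were chosen by their mean CPM (expected counts scaled by the library sum) over the 3 libraries of a group. A member had a mean of at least 5 CPM in dP1 POP and in dP2 POP, and each mean was at least 3 times that of pP POP. The thresholds were met by 102 genes. Of these, 4 were left out because the study names them or because of their ID numbers. The ID ranges left out lie in the chromosome regions it examined and cover part of them. The number rests in part on 1 pale root, since 155 genes remained by the same rule without library pP POP-2, and 90 of them were among the 98. The outer phloem levels of dark and pale roots chose the members, so those levels are given as a description, without a test. The inner phloem was not used in the choice, and the tests below are of the inner phloem.

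The samples were field-grown carrot taproots (Daucus carota) from 9 roots, and each root gave 1 library of purple outer phloem (POP) and 1 of non-purple inner phloem (NPIP), 18 libraries in all. The groups were dark purple set 1 (dP1), dark purple set 2 (dP2) and pale purple (pP), with 3 roots each. dP1 and pP roots came from one F2 family grown in California, and dP2 roots came from a sibling F2 family grown in Wisconsin, with purple xylem as well. Set, family, site and xylem colour cannot be told apart for dP2. The roots were chosen by colour from segregating families, so each root is its own genotype, and no root was treated.

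Anthocyanins are flavonoid pigments stored in the vacuole. They are made from phenylalanine by phenylalanine ammonia-lyase (PAL), chalcone synthase (CHS), flavanone 3-hydroxylase (F3H), dihydroflavonol reductase (DFR) and leucoanthocyanidin dioxygenase (LDOX), and MYB and bHLH transcription factors switch these genes on. Phloem carries sugars through the taproot, and in carrot the pigment can be limited to its outer layer. A gene that is higher in the outer phloem of dark roots may be higher there alone, or in the inner phloem of the same roots as well. The members were therefore separated by their inner phloem. The background class held 27 members whose mean in dP1 NPIP and in dP2 NPIP was at least 3 times that of pP NPIP and at least 1 CPM. The single-set class held 45 members that met this in 1 dark set, 43 of them in dP2 and 2 in dP1. The POP-alone class held 26 members that met it in neither. No gene name or description was found here for any member, so members are given by ID and no role is stated for them.

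Totals ranged from 6918267 to 9133313 expected counts per library. The dissection was checked on 3 homologs of APL, a regulator of phloem identity in Arabidopsis. Their summed level was 12.4 to 88.3 CPM in NPIP libraries and 0.516 to 11.5 CPM in POP libraries, without overlap, and it was 19.1 to 29.1 CPM in dP1 NPIP and 57.9 to 88.3 CPM in dP2 NPIP, against 12.4 to 14.3 CPM in pP NPIP. IRX15-LIKE and KNAT7, which act in secondary wall formation in Arabidopsis, summed to 0.605 to 1.62 CPM in dP1 NPIP, 5.22 to 7.31 CPM in dP2 NPIP and 0.47 to 3.32 CPM in pP NPIP. In POP this sum was 8.94 to 18.7 CPM in dP1, 27.2 to 40.5 CPM in dP2 and 9.4 to 19.6 CPM in pP. By set, the APL sum in POP was 1.12 to 3.95 CPM in dP1, 5.53 to 11.5 CPM in dP2 and 0.516 to 3.61 CPM in pP. The APL sum was thus above that of pP in dP1 NPIP and in both tissues of dP2. The wall sum was above that of pP in both tissues of dP2. In the edgeR test described below, the 3 APL homologs and KNAT7 were called higher in dP2 NPIP than in pP NPIP, and IRX15-LIKE was not. None of these genes was called in dP1 NPIP against pP NPIP. The part of such tissue differences in the results below was not tested, and in bulk tissue fewer cells of a type and less RNA per cell cannot be told apart.

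In the outer phloem, the ratio of the dP1 mean to the pP mean ran from 3.02 to 449 with a median of 6.01, and that of the dP2 mean to the pP mean ran from 3.07 to 840 with a median of 11.3. These ratios set a pP mean below 3 reads over the group at 3 reads. On the length-corrected TPM scale, the members' median level was 11.8 TPM in dP1 POP, 37.4 TPM in dP2 POP and 1.98 TPM in pP POP. The medians over the 20253 genes tested were 11.7, 13.2 and 13.4 TPM in dP1 POP, dP2 POP and pP POP. The members were thus near the middle of all genes in dP1 POP, above it in dP2 POP and below it in pP POP. The mean was higher in dP2 POP than in dP1 POP in 72 members, and in 25 of them by at least 3 times. The mean of 1 member, DCAR_008913, was at least 3 times higher in dP1 POP than in dP2 POP. By TPM over the dark POP libraries the highest members were DCAR_019728 with 2565 in dP1 POP, 2161 in dP2 POP and 594 in pP POP, and DCAR_028972 with 1114, 1920 and 166 in the same order. DCAR_025844 had 547, 1367 and 87.8 TPM, and DCAR_009633 had 1121, 657 and 181 TPM.

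**Figure D1:**
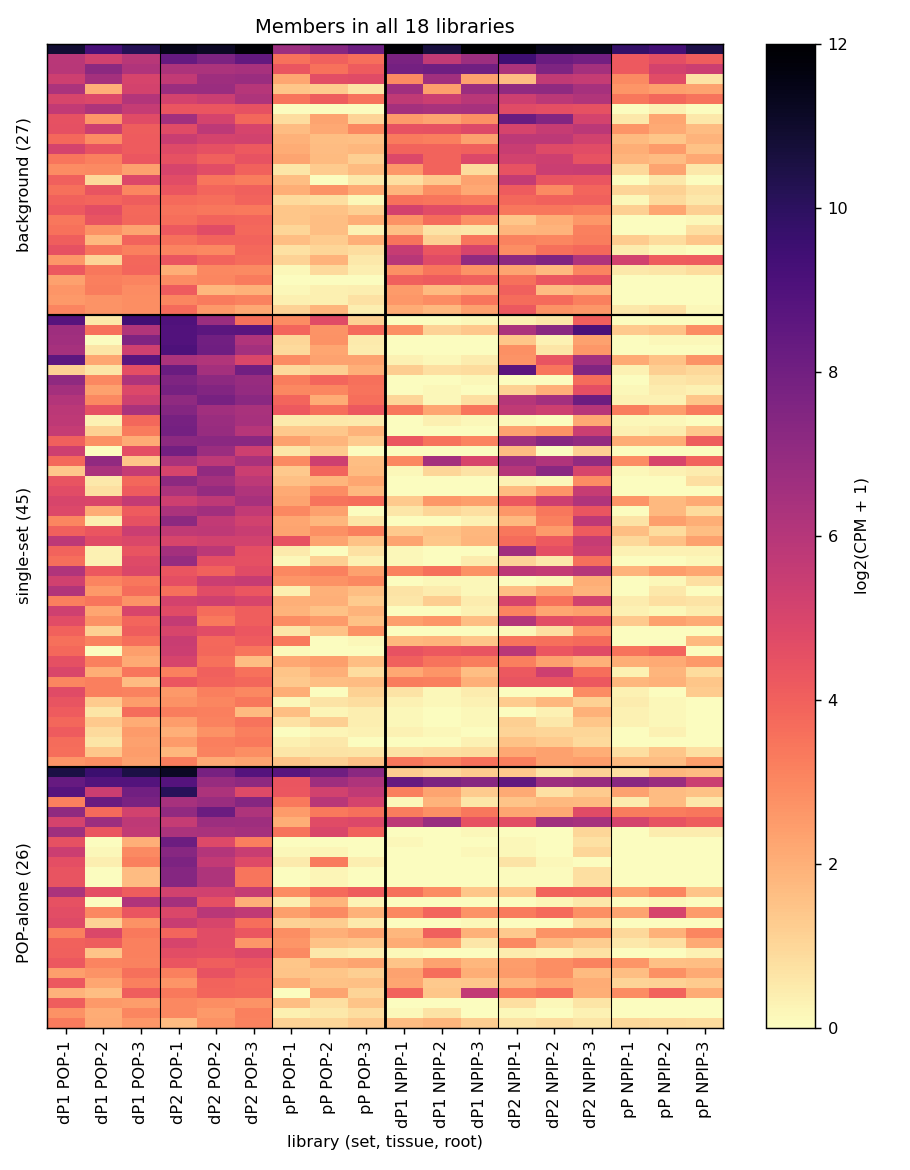
Level of each of the 98 members (1 line each, sorted within its class by the mean of the dark POP libraries) in the 18 libraries, as log2(CPM + 1), darker for higher. The background class (27) is dark in the dark sets in both tissues, while many POP-alone members (26 in all) are near 0 throughout the NPIP, and dP1 POP-2 is pale in many single-set members (45).

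The groups overlapped in many members. In 53 of the 98 every dark POP library was above every pP POP library, a separation found in 2.5% of all genes tested, and the rule itself favours it. Without library dP1 POP-2 the separation held in 85 members, so this library carried most of the overlap. Its level was at or below the highest pP POP library in 37 members, which were 3 of the background class, 23 of the single-set class and 11 of the POP-alone class. The other 5 dark POP libraries were in the pale range in 0 to 5 members each. DCAR_026111 shows the pattern, with 440, 0.439 and 668 CPM in dP1 POP, 511, 110 and 10.9 CPM in dP2 POP and 6.37, 24.9 and 1.24 CPM in pP POP. In dP1 the mean of such members rests on roots 1 and 3.

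**Figure D2:**
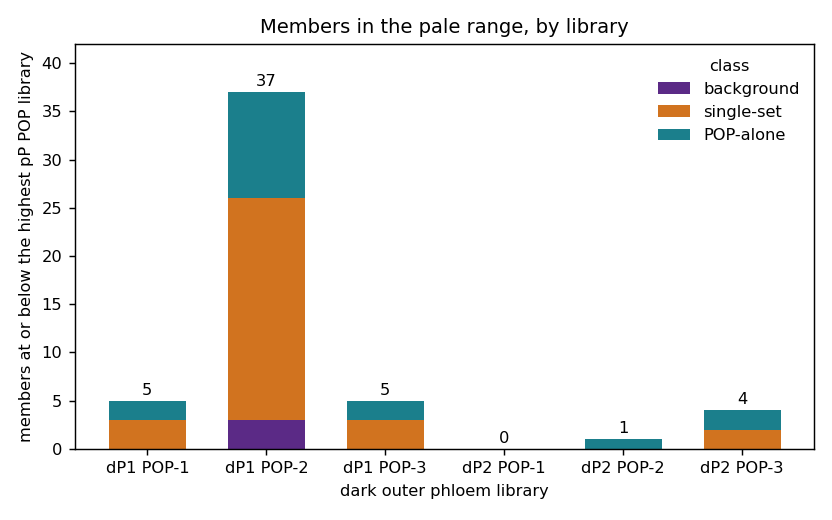
Number of members, stacked by class, whose level in each dark POP library was at or below the highest of the 3 pP POP libraries. dP1 POP-2 stands apart with 37 members, against 0 to 5 in the other 5 libraries.

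The 20 anthocyanin genes named in the study (PAL to LDOX, glycosyltransferases, transport genes, DcMYB7, DcMYB6 and DcbHLH3) did not share this pattern. Their dP1 over pP ratio in POP had a median of 3.37 and reached 3 in 12 genes, and their dP2 over pP ratio had a median of 1.69 and reached 3 in 6. F3H DCAR_009483 alone met both thresholds of the rule, and it is no member because the study names it. Among the 3 dP1 roots, dP1 POP-2 was the lowest library in 67 of 98 members and the highest in 15 of the 20 pathway genes. Over all genes tested it was lowest in 34.4% and highest in 37.7%. CHS DCAR_030786 had 31.6, 4379 and 792 CPM in dP1 POP, 189, 344 and 456 CPM in dP2 POP and 84.2, 531 and 202 CPM in pP POP. In dP1, the root with the most CHS RNA was thus the one with the lowest level of most members, and root 1, with the least CHS RNA, was the highest of the 3 in 53 members. In dP2, POP-1 was highest in 50 members and lowest in 16 of the 20 pathway genes, against 38.5% and 38% of all genes tested. In the pale roots the members' shares were near those of all genes tested, so they show nothing particular to the members. POP-2 of pP was highest in 39 members (39.8%) and in 16 pathway genes (80%), against 41.7% of all genes tested. POP-1 of pP was lowest in 45 members (45.9%) and in 12 pathway genes (60%), against 51.3% of all genes tested.

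The background class was the steadiest. In 24 of its 27 members all dark POP libraries were above all pP POP libraries, against 18 of 45 in the single-set class and 11 of 26 in the POP-alone class. In 16 of the 27, all 12 dark libraries of both tissues were above all 6 pP libraries, which was so in 0.43% of the genes tested. The split used the inner phloem means, so this share is a description. DCAR_009566 was the clearest case. It had 49, 74.1 and 46.7 CPM in dP1 POP, 19.1, 19.1 and 21.4 CPM in dP2 POP and no read in pP POP. In the inner phloem it had 90.3, 79.8 and 83.4 CPM in dP1, 25.2, 22.7 and 21.4 CPM in dP2 and 0, 0.23 and 0 CPM in pP. In dP1 the POP was below the NPIP in all 3 roots, in dP2 the tissues overlapped, and the 6 pale libraries together held 2 reads. Against the floor of 3 reads over the group, dP1 POP was at least 449-fold and dP2 POP at least 158-fold higher than pP POP. Its counts were not whole in 12 libraries, since reads were shared with other genes, and its level is uncertain to that extent.

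DCAR_009039 had no read in any of the 6 pP libraries. It had 4.24, 8.12 and 7.35 CPM in dP1 POP, 6.31, 7.21 and 8.99 CPM in dP2 POP, 14.9, 16.5 and 15 CPM in dP1 NPIP and 10.9, 18.4 and 20.5 CPM in dP2 NPIP. The bounds were at least 52.2-fold in dP1 POP and 59.5-fold in dP2 POP, and its inner phloem mean was about 15 to 17 CPM in both dark sets. DCAR_024026 had 4.86, 5.49 and 6.13 CPM in dP1 POP, 7.24, 8.98 and 7.72 CPM in dP2 POP and 0.258, 0.289 and 0.657 CPM in pP POP, with 5.13 to 12.3 CPM in the dark NPIP libraries and no read in pP NPIP. DCAR_009514 had 5.36, 8.45 and 6.37 CPM in dP1 POP, 16.6, 2.48 and 2.88 CPM in dP2 POP and 0.129, 0.289 and 0.328 CPM in pP POP. These genes were low in level but separated dark from pale roots in both tissues.

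The most abundant member of the class by CPM, DCAR_025844, differed in kind, since it was well expressed in pale roots. It had 1833, 588 and 1158 CPM in dP1 POP, 2720, 2304 and 3603 CPM in dP2 POP and 106, 165 and 281 CPM in pP POP. In the inner phloem it had 3613, 1583 and 4274 CPM in dP1, 5435, 2602 and 2524 CPM in dP2 and 867, 658 and 1393 CPM in pP, so the NPIP of pale roots held more than their POP. DCAR_031953 had 78.3, 2.98 and 34.5 CPM in dP1 POP, 110.0, 108 and 62.4 CPM in dP2 POP and 1.68, 1.42 and 0.542 CPM in pP POP. In NPIP it had 96, 4.3 and 108 CPM in dP1, 132, 136 and 87.2 CPM in dP2 and 5.22, 4.33 and 4.03 CPM in pP. Root 2 of dP1 was near the pale level in both tissues of this gene, and its counts were not whole in 16 libraries. The other abundant members were DCAR_014564, DCAR_011039, DCAR_019639 and DCAR_017881. Of these, DCAR_019639 overlapped between groups in NPIP, with 6.5, 96.3 and 4.11 CPM in dP1, 2.16, 50.5 and 45.6 CPM in dP2 and 6.7, 24.7 and 0.594 CPM in pP.

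**Figure D3:**
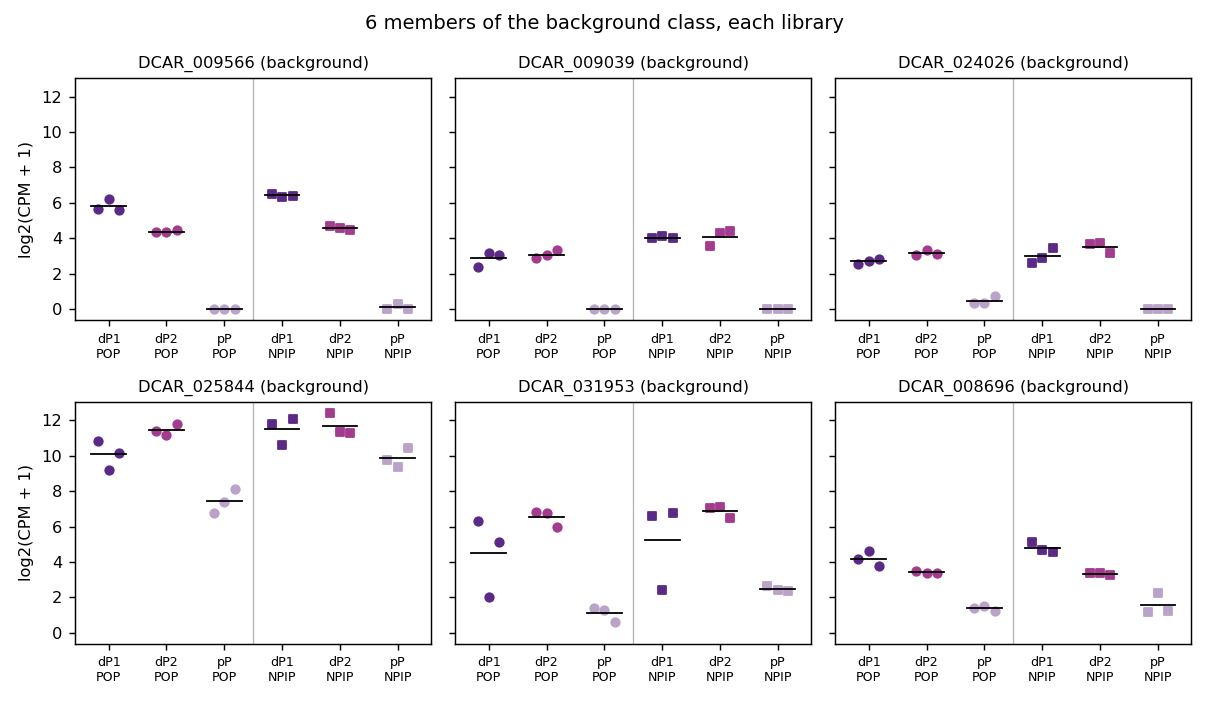
Level of 6 background members as log2(CPM + 1), 1 point per library and a line at the mean of 3 roots, circles for POP and squares for NPIP. DCAR_009566 and DCAR_009039 are at or near 0 in all 6 pP libraries, DCAR_025844 is high throughout, and dP1 root 2 is near the pale level in both tissues for DCAR_031953.

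The inner phloem of dark roots was then compared with that of pale roots by edgeR's quasi-likelihood test, in 1 fit of all 18 libraries and 20253 genes, all 98 members among them. Changes are given as log2 fold changes (log2FC), and a gene was called at a false discovery rate (FDR, the Benjamini-Hochberg adjusted p over all genes) under 0.05. Both comparisons use the same 3 pP NPIP libraries, and each tissue of a root carries that root's genotype, so the NPIP is a separate measurement of the same plants and not of new plants. In dP1 NPIP against pP NPIP, 20 of the 98 members rose (20.4%), against 2.08% of all genes tested. None was called lower, against 2.49% of all genes. At an unadjusted p under 0.05, 2 members were lower, and DESeq2 and edgeR's likelihood ratio test each called 3 lower, DCAR_000511, DCAR_008913 and DCAR_014449. The members' median log2FC was 0.96, or 0.67 with the 21 members that lack reads in a group put at their bound, beside 0 for all genes. In dP2 NPIP against pP NPIP, 57 members rose (58.2%), against 18.9% of all genes, and none was called lower, against 16.3%. No member was lower at an unadjusted p under 0.05, and DESeq2 and the likelihood ratio test called none lower. The median log2FC was 3.52, or 3.26 with 17 members at their bound, beside 0.03 for all genes.

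The 6 called members with the highest fitted log2FC in dP1 NPIP were background genes, in an order that depends on the prior count where pP NPIP had no read. DCAR_009039 was at least 132-fold higher in dP1 NPIP than in pP NPIP (FDR 1.44e-05) and DCAR_024026 at least 61.1-fold (FDR 7.7e-06). DCAR_009514 was at least 28.8-fold higher (FDR 0.0143), and DCAR_009566 had a ratio of 1103 with an exact 95% interval of 299 to 8950 from counting error alone (FDR 4.71e-07). DCAR_026157 had a log2FC of 7.58 ± 0.71 (SE, FDR 3.73e-05), and DCAR_009823, with 1 read in pP NPIP, had a ratio of 197 (interval 35.8 to 8020, FDR 8.92e-05). In dP2 NPIP against pP NPIP, DCAR_009039 was at least 142-fold higher (FDR 2.81e-06), DCAR_024026 at least 90.9-fold (FDR 1.07e-06) and DCAR_009514 at least 56.9-fold (FDR 0.000678). DCAR_016754, a single-set member, was at least 150-fold higher in dP2 NPIP (FDR 0.00592). It held 2.24, 5.21 and 45 CPM in dP2 NPIP and no read in the other 6 NPIP libraries. The fitted log2FC of genes with no read in pP NPIP depends on the prior count and is no bound. The split used the same inner phloem means, so it fixes in part which class these genes fall in. Of the called members, 19 of 20 in dP1 and 26 of 57 in dP2 were background genes, 1 and 30 were single-set members, and 0 and 1 were POP-alone. The single-set member called in dP1 was DCAR_005559, with a log2FC of 1.71 ± 0.41 (SE, FDR 0.0308), and the POP-alone member called in dP2 was DCAR_012209, with 12 reads in dP2 NPIP and none in pP NPIP.

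Other background members were measured at intermediate levels. DCAR_025759 had 14.7, 13.8 and 16.2 CPM in dP1 POP, 12.3, 11.3 and 14.3 CPM in dP2 POP and 0.903, 0.723 and 0.109 CPM in pP POP. In NPIP it had 10.8, 9.95 and 8.95 CPM in dP1, 12.9, 14.4 and 15.1 CPM in dP2 and 0.118, 0.915 and 0.475 CPM in pP. All 12 dark libraries lay between 8.95 and 16.2 CPM and the 6 pale ones below 1 CPM, and its NPIP log2FC over pP was 4.32 ± 0.51 in dP1 (SE, FDR 0.000311) and 4.78 ± 0.51 in dP2 (SE, FDR 1.72e-05). DCAR_010064 had 9.73, 8.01 and 18.5 CPM in dP1 POP, 21.3, 15.1 and 20.3 CPM in dP2 POP and 3.87, 2.31 and 1.31 CPM in pP POP. In NPIP it rose by 3.11 ± 0.44 in dP1 (SE, FDR 0.00147) and by 3.5 ± 0.45 in dP2 (SE, FDR 6.25e-05) on the log2 scale. DCAR_027290 was unequal between the dark sets. It had 12.6, 6.37 and 16.5 CPM in dP1 POP, 42.5, 32.7 and 34.9 CPM in dP2 POP and 2.84, 2.02 and 1.97 CPM in pP POP, and its NPIP log2FC over pP was 1.73 ± 0.38 in dP1 (SE, FDR 0.0219) and 4.4 ± 0.41 in dP2 (SE, FDR 5.49e-06).

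**Figure D4:**
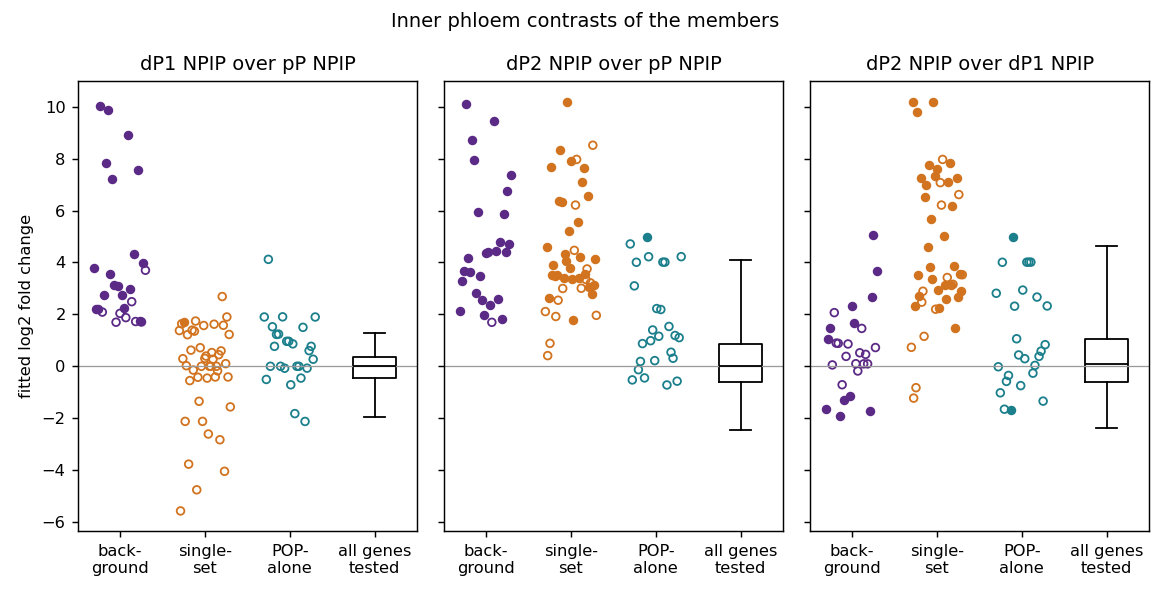
Fitted log2 fold change of each member in the 3 inner phloem contrasts, by class, filled where FDR was under 0.05 and open otherwise, beside a box plot of all 20253 genes tested (box at the quartiles, whiskers at the 5th and 95th percentiles). In dP1 over pP, 20 members rose and 19 of them are in the background class, and in dP2 over pP, 57 rose.

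The dark sets differed from each other in the inner phloem. In dP2 NPIP against dP1 NPIP, 39 members rose (39.8%), against 22.4% of all genes, and 6 fell (6.12%), against 18.9% of all genes. The 6 became 3 without dP1 NPIP-2 or without dP2 NPIP-1. The median log2FC was 2.33, or 2.13 with 12 members at their bound, beside 0.07 for all genes. With root as a random block, 25 members rose and 6 fell. Of the 39, 31 were single-set members, which the split in part fixes, since 43 of the 45 were put in that class for a raised mean in dP2 NPIP and not in dP1 NPIP. DCAR_005691 had 94.1, 22.8 and 39.1 CPM in dP2 NPIP, against a single read over the 3 dP1 NPIP libraries (FDR 0.000198). DCAR_000511 was at least 144-fold higher in dP2 NPIP, with 3.95, 5.79 and 42.2 CPM against no read in dP1 NPIP (FDR 0.00387), a call that was lost with root as a random block (FDR 0.0514). DCAR_022809 had 64, 92.2 and 278 CPM in dP2 NPIP and 1, 0.116 and 0.726 CPM in dP1 NPIP, with a log2FC of 7.83 ± 1.11 (SE, FDR 9.61e-05). The 6 that fell were DCAR_009566, DCAR_026157, DCAR_009858, DCAR_008696, DCAR_009823 and DCAR_011039. DCAR_009566 had a log2FC of −1.93 ± 0.28 (SE, FDR 0.000206) from the values given above. DCAR_008696 had 9.46, 9.42 and 8.45 CPM in dP2 NPIP against 34.5, 24.6 and 22.7 CPM in dP1 NPIP, a log2FC of −1.65 ± 0.33 (SE, FDR 0.00117). DCAR_026157 had 6.11, 11 and 12.5 CPM against 44, 18.3 and 31.7 CPM (FDR 0.011), and its call was lost without dP1 NPIP-1 (FDR 0.0599). The call of DCAR_009858 was lost with root as a random block and without dP1 NPIP-2 or dP2 NPIP-1. In DCAR_009566, DCAR_008696 and DCAR_026157 the sets did not overlap in NPIP, and these 3 genes were at 3.66 CPM or less in pP NPIP.

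Library dP2 NPIP-3 held the highest of the 9 NPIP values in 43 members (43.9%), against 15.1% of all genes tested. These were 6 background, 27 single-set and 10 POP-alone members. Without it, 47 members rose in dP2 NPIP against pP NPIP and 31 rose against dP1 NPIP. The APL sum of this library was 57.9 CPM, the lowest of the 3 in dP2 NPIP, and DCAR_019728, the most abundant outer phloem member by TPM, had 1.13 CPM in it against 1.56 and 0.567 CPM in the other two. Some other genes that were higher in POP than in NPIP were raised in it. PAL DCAR_020833 had 46.5, 104 and 712 CPM in dP2 NPIP and PAL DCAR_014989 had 20.5, 38.4 and 267 CPM. The 4CL gene DCAR_021385 (4CL activates cinnamic acids for flavonoids and lignin) had 20.8, 43.8 and 293 CPM. CHS DCAR_030786 was low in all dP2 NPIP libraries but highest in dP2 NPIP-3, with 0.479, 0.454 and 2.48 CPM. DFR DCAR_021485 had 2.75, 2.16 and 2.7 CPM. The wall sum was 5.41 CPM in it, against 7.31 and 5.22 CPM in the other dP2 NPIP libraries. Among the 9 NPIP libraries, dP2 NPIP-3 was highest in 6 of the 20 pathway genes, against 15.1% of all genes tested. Library dP1 NPIP-2 was highest in 12 of them, against 7.38% of all genes tested. The part of this library's tissue makeup in these calls was not tested.

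Single-set members were mostly outer phloem genes in dP1. All 3 POP libraries were above all 3 NPIP libraries in 33 of 45 in dP1, 22 of 45 in dP2 and 19 of 45 in pP. This separation was found in 20.6% of all genes tested for dP1, 16.5% for dP2 and 15.1% for pP. The POP means of all 3 sets chose the members and the NPIP means of all 3 sets chose the class. These counts and the ratios that follow, those of pP included, are therefore fixed in part by those choices and are a description. For the POP to NPIP ratio the medians were 49.7 (dP1), 3.43 (dP2) and 3.41 (pP). DCAR_011733 had 100.3, 10.5 and 67.7 CPM in dP1 POP, 483, 405 and 410.1 CPM in dP2 POP and 13.8, 5.49 and 12.3 CPM in pP POP. In NPIP it had 5.88, 1.16 and 1.57 CPM in dP1, 77.4, 158 and 574 CPM in dP2 and 1.53, 1.83 and 6.42 CPM in pP. Both dP2 tissues held it at 77.4 CPM or more, while dP1 NPIP stayed within the range of pP NPIP or below it. DCAR_008913 had 371, 3.62 and 415 CPM in dP1 POP, 78.6, 67.6 and 29.6 CPM in dP2 POP and 6.32, 4.05 and 4.05 CPM in pP POP. In NPIP it had 0.25, 0.116 and 0.363 CPM in dP1, 5.39, 20 and 92.3 CPM in dP2 and 3.41, 1.83 and 5.47 CPM in pP. DCAR_017808 had 1.25, 0.549 and 22.8 CPM in dP1 POP, 302, 88.7 and 252 CPM in dP2 POP and 0.903, 1.3 and 2.96 CPM in pP POP, so its membership in dP1 came from 1 root. DCAR_000323 and DCAR_009672 had about 1 and 3 reads in pP POP, which gave the dP2 mean a ratio of 565 (95% interval 89.7 to 19900) and of 46.5 (15 to 220). With pP POP set at the floor of 3 reads, these ratios were 167 and 44.7. DCAR_000323 was no outer phloem gene. Every dark root held less of it in POP than in NPIP, and dP1 POP-2 had no read. Its pP NPIP libraries held 10.1, 13.8 and 0.0143 CPM, and its counts were not whole in 16 libraries.

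Some single-set members were high in both tissues of dP2. DCAR_016661 had 15.3, 5.93 and 3.31 CPM in dP1 POP, 144, 153 and 150.0 CPM in dP2 POP and 4.13, 2.6 and 1.42 CPM in pP POP. In NPIP it had 18.5, 10.2 and 7.5 CPM in dP1, 98.1, 161 and 128 CPM in dP2 and 3.29, 3.2 and 16 CPM in pP. Its dP1 POP libraries overlapped those of pP, and the dP2 libraries of both tissues were at 98.1 CPM or more, against at most 18.5 CPM in all other libraries, with a log2FC in NPIP of 4.07 ± 0.7 over pP (SE, FDR 0.000524). DCAR_019432 had 8.23, 9.99 and 5.51 CPM in dP1 POP, 33.8, 37.6 and 31.3 CPM in dP2 POP and 2.97, 3.04 and 1.42 CPM in pP POP. Its NPIP log2FC over pP was 0.53 ± 0.63 in dP1 (SE, FDR 0.696) and 5.55 ± 0.58 in dP2 (SE, FDR 1.38e-05).

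POP-alone members were mostly outer phloem genes in dP2. All 3 POP libraries were above all 3 NPIP libraries in 14 of 26 (dP1), 22 of 26 (dP2) and 12 of 26 (pP), and the median POP to NPIP ratios of these sets were 39, 35.9 and 1.63. The shares over all genes tested were the 20.6%, 16.5% and 15.1% given above. All these counts and ratios are a description, those of pP included. The class is defined by dark POP that was high against pP POP, and by dark NPIP that missed the thresholds of the split against pP NPIP. Dark NPIP could still be above pP NPIP. The dP2 NPIP to pP NPIP ratio had a median of 2.01 and reached 3.98, and 21 of 26 had a log2FC above 0. In dP1 the median ratio was 0.916, and 15 of 26 had a log2FC above 0. DCAR_019728 had 1466, 767 and 1436 CPM in dP1 POP, from 222 to 2328 CPM in dP2 POP and 415, 264 and 153 CPM in pP POP, while no NPIP library of any set passed 2.52 CPM. It was an outer phloem gene in pale roots too, and the lowest dP2 library lay within the pale range. DCAR_029082 had 7.98, 296 and 206 CPM in dP1 POP, 84.6, 110 and 168 CPM in dP2 POP and 9.16, 60.1 and 33.3 CPM in pP POP, so dP1 root 1 was below all pale roots. DCAR_028972 had 436, 40.3 and 250.4 CPM in dP1 POP, 1115, 76.2 and 25.7 CPM in dP2 POP and 18.6, 34.8 and 50.5 CPM in pP POP, with 1 root of each dark set in the pale range. DCAR_012577 had 21.1, 0 and 2.94 CPM in dP1 POP, 282, 26.8 and 8.29 CPM in dP2 POP and no read in pP POP, so dP2 was at least 840-fold higher. DCAR_002671 had 40, 0.11 and 6.62 CPM in dP1 POP, 162, 65.8 and 43 CPM in dP2 POP and 2 reads in pP POP. DCAR_009633 and DCAR_020368 were no outer phloem genes, since their NPIP levels were 40.9 to 339 and 16.3 to 113 CPM over the 9 roots. The low levels of POP-alone members in NPIP limit their tests, and 1 of 26 rising in dP2 NPIP does not show that the others did not differ.

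Members with neighbouring ID numbers formed 2 runs of at least 3 members within 10 numbers. The first held DCAR_018992, DCAR_018993, DCAR_018995, DCAR_018996, DCAR_018999 and DCAR_019001. It was an outer phloem run that was at or near 0 in the NPIP of dP1 and pP. In dP2 NPIP its highest value was 5.88 CPM, in DCAR_018996. DCAR_018993 had 95.8, 0 and 187 CPM in dP1 POP, 490, 251 and 69.9 CPM in dP2 POP and 1.04, 5.75 and 0.416 CPM in pP POP. In NPIP it had no read in dP1, 1.69, 0.249 and 4.19 CPM in dP2 and 0, 0.114 and 0.119 CPM in pP. DCAR_018996 had 87.5, 0.549 and 37.5 CPM in dP1 POP, 536, 266 and 90.8 CPM in dP2 POP and 0.898, 3.63 and 0.35 CPM in pP POP. DCAR_018995 had 39, 0 and 22.8 CPM in dP1 POP, 246, 107 and 38.6 CPM in dP2 POP and 0.517, 1.45 and 0 CPM in pP POP. All 6 members of the run were at or near 0 in dP1 POP-2 and highest in dP2 POP-1. DCAR_018999 and DCAR_019001 had the same counts in every library, so they cannot be told apart and count as 1 measurement. All 6 had counts that were not whole in 7 to 11 libraries, so the run may count shared reads more than once. Of the numbers between them, DCAR_018994 had means of 6.46 CPM in dP1 POP, 3.91 CPM in dP2 POP and 0.184 CPM in pP POP and missed the level threshold in dP2. The second run held DCAR_023312, DCAR_023313 and DCAR_023314. DCAR_023313 had 52.5, 0.218 and 13.1 CPM in dP1 POP, 221, 110.0 and 84.3 CPM in dP2 POP and 0.387, 0.431 and 0.425 CPM in pP POP. All 3 genes of this run had 0.257 CPM or less in dP1 NPIP, and their highest dP2 NPIP value was in root 3.

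**Figure D5:**
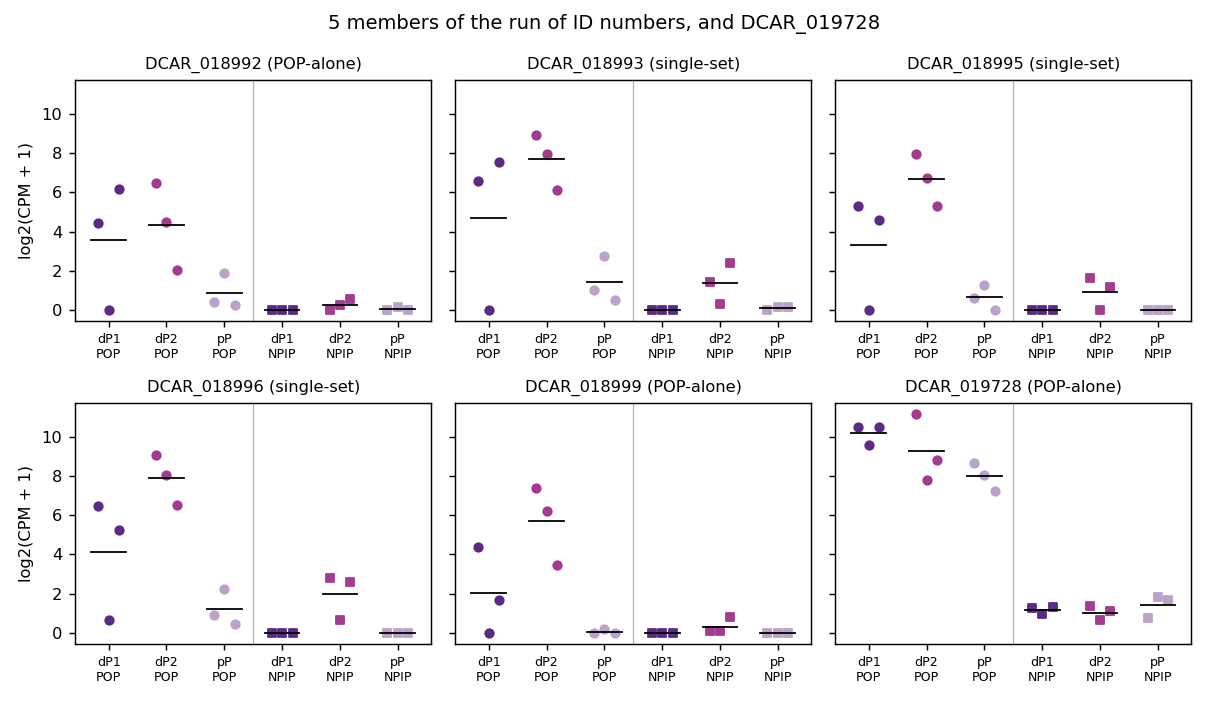
Level of 5 members with ID numbers from DCAR_018992 to DCAR_018999, and of DCAR_019728, as log2(CPM + 1), 1 point per library and a line at the mean of 3 roots, circles for POP and squares for NPIP. The 5 neighbours are at or near 0 in dP1 POP-2 and in the NPIP of dP1 and pP. In dP2 NPIP, DCAR_018993 reaches 4.19 CPM and DCAR_018996 reaches 5.88 CPM. DCAR_019728 is high in the POP of all 3 sets.

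The ID numbers of 223 genes that the study places on a chromosome follow the order of chromosomes 1 to 9, so a gene whose number lies between 2 genes placed on the same chromosome was assigned to it. DcMYB6, whose number stands outside this order, was not used. By this assignment 10 of the 27 background members (37%) and 9 of the 71 others (12.7%) were on chromosome 3, against 9.83% of the genes tested outside the genes and ID ranges left out. No chromosome was assigned to 27 of the 98 members (27.6%), 6 of them background, or to 21.7% of the genes tested. The unassigned background members DCAR_008696, DCAR_008770 and DCAR_008803 have numbers between the last gene placed on chromosome 2 and the first on chromosome 3. The single-set members DCAR_008913 and DCAR_008915 were unassigned too. In the study's text DcMYB113 of chromosome 3 has a lower number than both, which would put them on chromosome 3 and raise the share of the others. The background members assigned to chromosome 3 were DCAR_009039, DCAR_009066, DCAR_009070, DCAR_009514, DCAR_009566, DCAR_009687, DCAR_009823, DCAR_010064, DCAR_010931 and DCAR_011039. Chromosome 3 carries the regions the study mapped for root phloem pigment. The ID ranges left out by the rule cover only part of these regions. The study places the MYB gene DcMYB113, and the genes at the ends of the lower of these ID ranges, in its mapped region P1. By number, DCAR_009039, DCAR_009066 and DCAR_009070 fall between DcMYB113 and that range. They lie within P1 if the numbers follow position there. Other members listed here may also lie within or beside a mapped region. Chromosome 5 held 19 of the 71 single-set and POP-alone members (26.8%) and 2 of the 27 background members (7.41%). Its share of all genes tested, here with the genes and ID ranges left out included, was 10.8%. The run around DCAR_018993 gave 6 of those 19. These shares are descriptions of members chosen with their values known, and neighbouring genes are not independent.

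The members were of ordinary length, with a median coding length of 1144 bases against 1146 bases over the genes tested. Counts were not whole in at least 1 library in 28 members and in at least 10 libraries in 17, where reads were divided between similar genes. The sources used here do not state strand, and reads of a gene and its antisense partner cannot be separated. Near the 3-fold threshold, DCAR_031126 and DCAR_016661 had a smaller ratio of 3.02 and were inside, while DCAR_003420 with 2.99 and DCAR_019730 with 2.98 were outside. Near 5 CPM, DCAR_005559 with 5.19 and DCAR_009858 with 5.2 were inside, and DCAR_009694 with 4.98 and DCAR_024711 with 4.97 were outside.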

How the data were processed

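RNA was measured by single-end RNA-seq of total RNA in 18 libraries. Per the labels, the authors checked and trimmed reads with FastQC and Trimmomatic 0.32, aligned them with Bowtie2 and quantified them with RSEM, and the study's methods name the V1.0 carrot annotation. The authors deposited RSEM expected counts, not normalized, with TPM and a gene length beside them. These TPM, deposited by the authors, were used for levels between genes, and lengths deposited in the files were used as a description. Set and tissue came from the labels.

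CPM were computed from library sums, and members were found by the rule stated above. For tests, expected counts were made whole, a gene needed 1 CPM or more in 3 or more libraries, and 6 groups were fitted with TMM factors of 0.929 to 1.09 in edgeR 4.0.16 (R 4.3.3), by the quasi-likelihood test with 12 residual degrees of freedom and Benjamini-Hochberg FDR under 0.05 over all genes. SE is the log2FC divided by the square root of F. The fit was tested on simulated data with 200 changed genes. Floors are 3 reads over a group. Intervals are exact 95% intervals, and both cover counting error alone.

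The members, class split, gene lists and naming rule were chosen with earlier results of these data known. Genes named are, in each class, the 6 most abundant and the 4 with the highest smaller ratio, the 4 largest called changes in each direction of a contrast, runs, and genes at the thresholds; others were chosen after their values were seen. Not every named gene is described. Alternatives were RLE and library sums, no filter or filterByExpr, DESeq2 1.42.0, the likelihood ratio test, unrounded counts, 6 libraries alone, replicate blocks (limma 3.58.1) and each library left out. Libraries of the same number are 1 root by the study's methods. Their deviations from the group means had r of 0.33 to 0.439 in dP1 and 0.31 to 0.555 in dP2, but −0.246, 0.592 and −0.0832 in pP, where POP-1 had r of 0.61 with NPIP-3 and POP-3 had 0.438 with NPIP-1. The numbers of these pP libraries are thus in doubt, and the root block rests on them.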

Additional observations from a re-analysis of the deposited data

Results flagged for a closer look

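Members whose change over the pale inner phloem differed between the dark sets were picked out by the test of dP2 NPIP against dP1 NPIP, which called 39 members higher and 6 lower. The fitted log2FC was 10.2 for DCAR_016754, 10.19 for DCAR_000511, 9.81 for DCAR_005691 and 7.83 for DCAR_022809. The first 2 had no read in dP1 NPIP and DCAR_005691 had 1, so those fitted values depend on the prior count. The fitted log2FC was −1.93 for DCAR_009566, −1.71 for DCAR_026157, −1.69 for DCAR_009858 and −1.65 for DCAR_008696. Family, site and xylem colour cannot be told apart from set in this contrast. Groups of 3 were too small for a check for outlying samples.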

How the results depend on the processing

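In dP1 NPIP over pP NPIP, DESeq2 and the likelihood ratio test each called 3 members lower where the quasi-likelihood test called 0. The replicate block with root as a random block gave 17 members higher in dP1 over pP, 44 in dP2 over pP and 25 in dP2 over dP1, and the replicate block with number as a term gave 22, 57 and 35. With 1 NPIP library left out, 16 to 19 members rose in dP1 over pP, 47 to 54 in dP2 over pP and 28 to 36 in dP2 over dP1, and 3 to 5 fell in dP2 over dP1, the 3 without dP1 NPIP-2 or without dP2 NPIP-1. The 6 libraries of a contrast alone tested 55, 72 and 73 members and called 14, 52 and 33 higher. Of the genes named in these contrasts, the call of DCAR_000511 was lost with root as a random block (FDR 0.0514), and that of DCAR_026157 without dP1 NPIP-1 (FDR 0.0599). DCAR_009858 lost its call with root as a random block and without dP1 NPIP-2 or dP2 NPIP-1, and its FDR reached 0.0845. No direction reversed.

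The number of members was 215 at 2 times, 70 at 4 times, 193 at 2 CPM, 64 at 10 CPM, 112 with TMM-normalized CPM and 109 with medians, of which 67 were shared. With 1 POP library left out it was 73 to 155, the 155 without pP POP-2, and 133 without dP1 POP-2. The background class held 20 to 34 members under other thresholds. The members with every dark POP above every pP POP library were 85 without dP1 POP-2, an alternative chosen after seeing the data, and those with every dP2 POP above every dP2 NPIP library were 47, and 56 without dP2 NPIP-3. Low reads limit tests of members near 0, with 27 members at 3 reads or fewer over pP NPIP.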
